A study of Mus musculus with 14 samples.

Results

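The 10 genes described here are the classical MHC class II chain genes H2-Aa, H2-Ab1 and H2-Eb1, the peptide editor genes H2-DMa and H2-DMb1, the invariant chain gene Cd74, the class II transactivator gene Ciita, and 3 genes of antigen presenting cells, Cd207, Cd86 and Flt3. They were chosen by name, and each had 1 row in each of 2 deposited tables of 24537 genes. The tables hold TPM (transcript abundance scaled to transcript length and library size) for sorted mouse skin cells. Regulatory T (Treg) cells were taken 1 day after hair depilation, from 5 GR KO and 3 GR WT samples. Hair follicle stem cells (HFSC), sorted as CD34+ITGA6high cells, were taken 4 days after depilation, from 3 GR KO and 3 GR WT samples. GR KO mice are Foxp3YFP-Cre GRfl/fl, so that Cre made under the Foxp3 gene deletes the floxed glucocorticoid receptor gene in Treg cells, and HFSC of these mice are not targeted. GR WT mice are called wild type, and the labels do not say whether they carry the Cre. All mice were depilated. The labels give no strain, sex or age and do not say whether each replicate is a separate mouse. The p-values then cover only how far these samples differ, and some of that may be technical.

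MHC class II molecules are heterodimers of an alpha and a beta chain that show peptides from endosomes to CD4+ T cells. H2-Aa and H2-Ab1 encode the chains of the I-A molecule, and H2-Eb1 encodes the beta chain of I-E. The CD74 protein fills the groove of a new molecule, and the H2-DM heterodimer removes the remaining CD74 fragment and edits the peptide. CIITA is the coactivator that sets class II transcription, through RFX, CREB and NF-Y proteins bound to the X and Y boxes of the promoters. Langerhans cells are the antigen presenting cells of the epidermis. They are marked by langerin, the lectin encoded by Cd207. CD86 is the costimulatory ligand of CD28 and CTLA-4, and FLT3 is the cytokine receptor of dendritic cell precursors.

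RefSeq promoter windows of build GRCm38.p6 (the mm10 assembly, which the submitters' processing notes name) were found for 6 of the 10 genes, H2-Aa, H2-Eb1, H2-DMa, H2-DMb1, Cd207 and Flt3. Each window runs from 250 bases before the RefSeq gene start to 50 after it. The 3 windows below are shown because they hold the letters that class II promoters are known for. Capitals mark the Y box core TGATTGG, the X box form (AG, NN, AC, N and GATG in a row, N being any base) and the cyclic AMP response element TGACGTCA, all searched on both strands and chosen after the windows had been read. The H2-Aa window is chr17:34287774-34288073 on the minus strand, the H2-Eb1 window chr17:34305617-34305916 on the plus strand and the H2-DMb1 window chr17:34152941-34153240 on the plus strand. All are written 5′ to 3′ in the direction of the gene.
H2-Aa: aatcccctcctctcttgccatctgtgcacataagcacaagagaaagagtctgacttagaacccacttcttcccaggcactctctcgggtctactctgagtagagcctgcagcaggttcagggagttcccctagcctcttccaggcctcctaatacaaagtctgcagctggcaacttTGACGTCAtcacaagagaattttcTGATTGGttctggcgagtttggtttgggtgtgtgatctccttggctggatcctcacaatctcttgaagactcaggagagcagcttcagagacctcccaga
H2-Eb1: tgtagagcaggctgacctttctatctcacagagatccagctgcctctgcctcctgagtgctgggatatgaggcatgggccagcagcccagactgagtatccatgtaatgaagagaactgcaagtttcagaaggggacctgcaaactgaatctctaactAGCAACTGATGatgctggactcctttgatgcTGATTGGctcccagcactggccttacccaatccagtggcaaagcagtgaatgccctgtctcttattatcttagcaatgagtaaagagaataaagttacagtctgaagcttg
H2-DMb1: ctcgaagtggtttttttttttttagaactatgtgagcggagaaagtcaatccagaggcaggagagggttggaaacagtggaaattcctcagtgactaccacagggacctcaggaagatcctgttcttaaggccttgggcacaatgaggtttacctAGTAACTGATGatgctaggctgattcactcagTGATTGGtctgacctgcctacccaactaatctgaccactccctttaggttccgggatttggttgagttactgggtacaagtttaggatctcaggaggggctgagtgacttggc

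The Y box core began 50 bases before the gene start in H2-Aa, 61 in H2-Eb1 and 63 in H2-DMb1, and 7.817% of all 32851 windows hold it. The X box form began 92 bases before the start in H2-Eb1 and 95 in H2-DMb1, and 0.968% of all windows hold it. Both stood together in 18 of all windows, or 0.055%. H2-Aa held no match to the X box form and had the cyclic AMP response element 74 bases before its start, an element found in 1.79% of windows. The form searched is a narrow pattern, so a window without a match may still hold an X box. The deposited H2-Aa transcript starts at 34287771, just outside the downstream end of its window. Counted from that start, the distances given for H2-Aa would be longer. The windows of H2-DMa, Cd207 and Flt3 held none of these letters. A match describes the sequence and is not a measurement of binding.

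The Treg libraries held 9.17 to 14.5 M recovered tags each, and those of HFSC 4.50 to 7.99 M. Nr3c1, the receptor gene, stood at 106, 125, 106, 171 and 139 TPM in Treg GR KO and at 171, 233 and 229.7 TPM in Treg GR WT, so the groups overlapped. It averaged 43.6 ± 6.89 TPM in HFSC of GR KO and 41.6 ± 7.07 TPM in HFSC of GR WT (SD, n = 3 each). Of the libraries, Treg GR WT replicate 3 stood farthest out on the first principal component of its table (52.1, the others -24.5 to 22.9, 30.1% of the variance). HFSC GR WT replicate 1 did so in the other table (59.8, the others -17.7 to -4.02, 37.7% of the variance). T cell and Treg marker genes summed to 4879 to 5267 TPM in Treg GR KO and 4580 to 5138 TPM in Treg GR WT. Hair follicle stem cell markers summed to 4643 to 5946 TPM in HFSC of GR KO and 5875 to 8613 TPM in HFSC of GR WT.

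Class II chain transcripts were present in each of the 8 Treg libraries and near the detection floor in HFSC. H2-Aa, H2-Ab1 and H2-Eb1 together summed to 199 ± 53.4 TPM over the 5 Treg libraries of GR KO and 328 ± 187 TPM over the 3 of GR WT (mean ± SD). In HFSC the same sum was 1.78 ± 2.04 TPM in GR KO and 2.12 ± 0.631 TPM in GR WT (SD, n = 3 each). The tables were made separately, so levels set across them are a description. With all libraries, limma called none of the 7 of these 10 genes that could be tested in Treg cells and none of the 3 in HFSC.

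In Treg cells Cd74 was the most abundant of the 10 genes, at 315 ± 61.1 TPM over all libraries (SD, n = 8). H2-Aa followed at 115 ± 63.4 TPM, H2-Ab1 at 81.3 ± 38.8 TPM, H2-Eb1 at 50.8 ± 26.2 TPM and Cd86 at 23.3 ± 5.78 TPM. Each of these 5 genes exceeded the next in 8 of 8 libraries, and Cd86 exceeded H2-DMa in 8 of 8. H2-DMa (7.58 ± 2.79 TPM) and H2-DMb1 (7.52 ± 4.73 TPM) did not separate, with H2-DMa higher in 5 of 8 libraries. Flt3, Ciita and Cd207 lay below 1 TPM in each library and changed places between libraries.

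**Figure D1:**
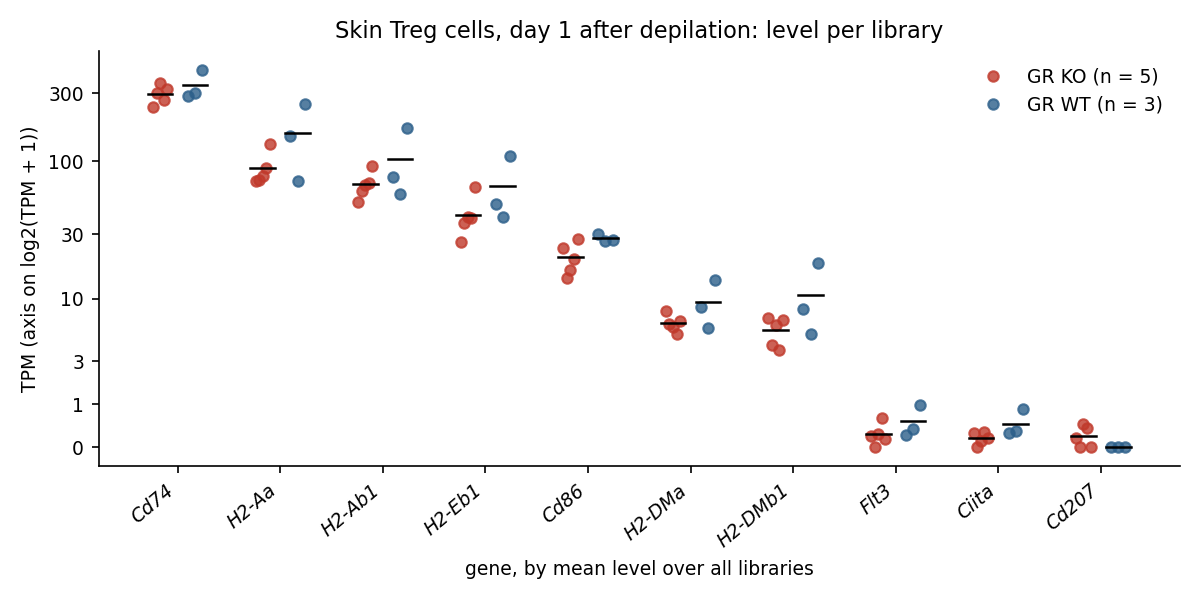
Level of each of the 10 genes in each Treg library, in TPM on an axis spaced as log2(TPM + 1), with GR KO (5 points) left of GR WT (3 points) and the group mean as a bar. The class II chains span 26.6 to 254 TPM, GR WT replicate 3 is the highest library for H2-Aa, H2-Ab1, H2-Eb1, H2-DMa, H2-DMb1, Cd74, Ciita and Flt3, and the groups overlap for each gene.

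H2-Aa, the I-A alpha chain gene (NM_010378, mm10 chromosome 17, 34282751 to 34287771, minus strand), had 72.7, 73.2, 78.0, 88.9 and 131 TPM in Treg GR KO, against 149.8, 72.0 and 254 TPM in Treg GR WT. GR WT replicate 2 lay below all GR KO libraries, and replicate 3 was the highest. Its fitted log2 change was -0.69 (SE 0.33, limma adjusted p = 0.382). Without GR WT replicate 2 it was -1.16 with an adjusted p = 0.0483, a call that stood in none of the other 15 alternatives, where the adjusted p reached 0.827. H2-Ab1, the I-A beta chain gene (NM_207105, chromosome 17, 34263227 to 34269418, plus strand), had 51.0, 61.1, 67.8, 70.1 and 91.8 TPM in Treg GR KO, against 77.5, 58.6 and 172 TPM in Treg GR WT. Its log2 change, GR KO over GR WT, was -0.45 (SE 0.29, limma adjusted p = 0.525). Only GR WT replicate 3 lay above all GR KO libraries.

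H2-Eb1, the I-E beta chain gene (NM_010382, chromosome 17, 34305867 to 34316674, plus strand), had 26.6, 36.5, 39.9, 39.1 and 65.7 TPM in Treg GR KO, against 49.8, 39.9 and 109 TPM in Treg GR WT. The fitted log2 change was -0.58 (SE 0.32, limma adjusted p = 0.449), and again only GR WT replicate 3 exceeded each GR KO library. H2-Ea-ps, the row of the I-E alpha chain gene, which the table lists with a pseudogene suffix, was listed at 0 in all 14 libraries. The ratios between the chains varied from library to library, most for H2-Aa over H2-Ab1 in Treg GR WT. H2-Eb1 stood at 0.521 to 0.715 of H2-Ab1 in Treg GR KO and 0.634 to 0.681 in Treg GR WT, and H2-Aa at 1.15 to 1.43 times H2-Ab1 in Treg GR KO and 1.23 to 1.93 times in Treg GR WT.

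Cd74, the invariant chain gene (NM_010545, chromosome 18, 60803849 to 60812652, plus strand), varied less than the chains. It had 240.5, 304, 355, 268 and 320.0 TPM in Treg GR KO, against 287, 302 and 441 TPM in Treg GR WT. Its log2 change was -0.19 (SE 0.16, limma adjusted p = 0.633). Cd74 stood at 3.31, 4.15, 4.55, 3.02 and 2.44 times H2-Aa in Treg GR KO, against 1.92, 4.19 and 1.74 times in Treg GR WT. GR WT replicate 2 had the ratio of the GR KO libraries, and the other GR WT libraries lay below all of them.

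The peptide editor genes stood near each other. H2-DMa (NM_010386, chromosome 17, 34122832 to 34139101, plus strand) had 8.03, 6.36, 6.001, 5.19 and 6.64 TPM in Treg GR KO, against 8.68, 5.87 and 13.9 TPM in Treg GR WT (log2 fold change -0.43, SE 0.24, limma adjusted p = 0.464). H2-DMb1 (NM_010387, chromosome 17, 34153191 to 34160229, plus strand) had 7.05, 4.21, 6.155, 3.795 and 6.85 TPM in Treg GR KO, against 8.31, 5.19 and 18.6 TPM in Treg GR WT (log2 fold change -0.69, SE 0.34, limma adjusted p = 0.392). In both genes GR WT replicate 3 was the highest and replicate 2 lay within the GR KO range. H2-DMb2, a near-identical neighbour of H2-DMb1 with which reads could be shared, averaged 1.46 TPM in Treg GR KO and 1.36 TPM in Treg GR WT. The editor genes together came to 4.54% to 10.04% of the chain sum in Treg GR KO and 6.07% to 6.49% in Treg GR WT.

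Ciita (NM_001302618, chromosome 16, 10480072 to 10527640, plus strand) was barely detected beside these levels. It had 0.269, 0, 0.105, 0.275 and 0.170 TPM in Treg GR KO, against 0.254, 0.306 and 0.852 TPM in Treg GR WT, from 114 tags over the 8 libraries. GR WT replicate 3 was again the highest. The gene was under the filter of a mean of 1 TPM and not part of the fit. With no filter its log2 change was -0.32 (SE 0.15, limma adjusted p = 0.398). Dexi overlaps Ciita on the other strand, and the sources used here do not give whether counting used the strand.

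Cd86 (NM_019388, chromosome 16, 36603869 to 36666077, minus strand) had 23.9, 14.3, 16.6, 19.96 and 28.0 TPM in Treg GR KO, against 30.1, 26.8 and 27.3 TPM in Treg GR WT. GR KO replicate 5 overlapped the GR WT range and the other GR KO libraries lay below it. The fitted log2 change was -0.47 (SE 0.20, limma adjusted p = 0.325), with the smallest unadjusted p of the 7 genes tested (0.0357). Unlike the chains, Cd86 was not highest in GR WT replicate 3, and without that library its fold change stayed at -0.49. Its partner genes were far more abundant in these T cells. Ctla4 averaged 4835 ± 1163 TPM in Treg GR KO and 5922 ± 496 TPM in Treg GR WT, and did not pass (adjusted p = 0.455). Cd80, the other ligand gene of CD28 and CTLA-4, averaged 28.4 TPM in Treg GR KO and 36.1 TPM in Treg GR WT (adjusted p = 0.32).

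The langerin gene Cd207 (NM_144943, chromosome 6, 83671207 to 83677857, minus strand) was at or near 0. It had 0.160, 0, 0.449, 0.367 and 0 TPM in Treg GR KO, from 14 tags in all, and 0 TPM in each Treg GR WT library. A count of 0 allows up to 0.379 to 0.543 TPM in those GR WT libraries (3 read pairs or 6 tags, counting error only), so no difference was detectable at this depth. Flt3 (NM_010229, chromosome 5, 147330742 to 147400489, minus strand) had 0.201, 0, 0.251, 0.616 and 0.152 TPM in Treg GR KO, against 0.228, 0.351 and 0.980 TPM in Treg GR WT. Neither gene reached a mean of 1 TPM. The highest value listed for the defining Langerhans cell marker was thus 0.449 TPM, from 6 tags in GR KO replicate 3. Of the 18 further Langerhans and dendritic cell markers, Itgax, Clec9a and Xcr1 were below 1 TPM on average in both genotypes. Others were higher, with Ccr7 at 35.3 TPM in Treg GR KO and 32.0 TPM in Treg GR WT, Epcam at 25.4 TPM in Treg GR KO and 34.5 TPM in Treg GR WT, and Mgl2, Zbtb46, Irf8, Ly75 and Cd209a between 5.57 and 10.9 TPM in both. Which cells these transcripts came from was not tested, so the list name does not give their source.

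Of the 10 genes, 7 passed the filter in Treg cells, and limma called 0 of 7, where it called 1.51% of all 11579 genes tested (1.31% lower and 0.199% higher in GR KO). An unadjusted p under 0.05 was found for 1 of 7, Cd86, against 14.1% of all genes. Voom on recovered tags called 0 of 7, against 253 of all 11579 genes. In none of the 7 did the groups separate. All GR KO libraries lay below all GR WT libraries for 5.1% of genes and above them for 3.42%. The log2 fold change was below 0 in 7 of 7, as it was in 55.8% of all genes, and its median over the 7 was -0.47 beside -0.04 over all genes. GR WT replicate 3 enters all 7 values. Without it they were -0.49 for Cd86, -0.26 for H2-Aa, -0.23 for H2-DMb1, -0.16 for H2-Eb1, -0.14 for H2-DMa, -0.01 for H2-Ab1 and 0.00 for Cd74.

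**Figure D2:**
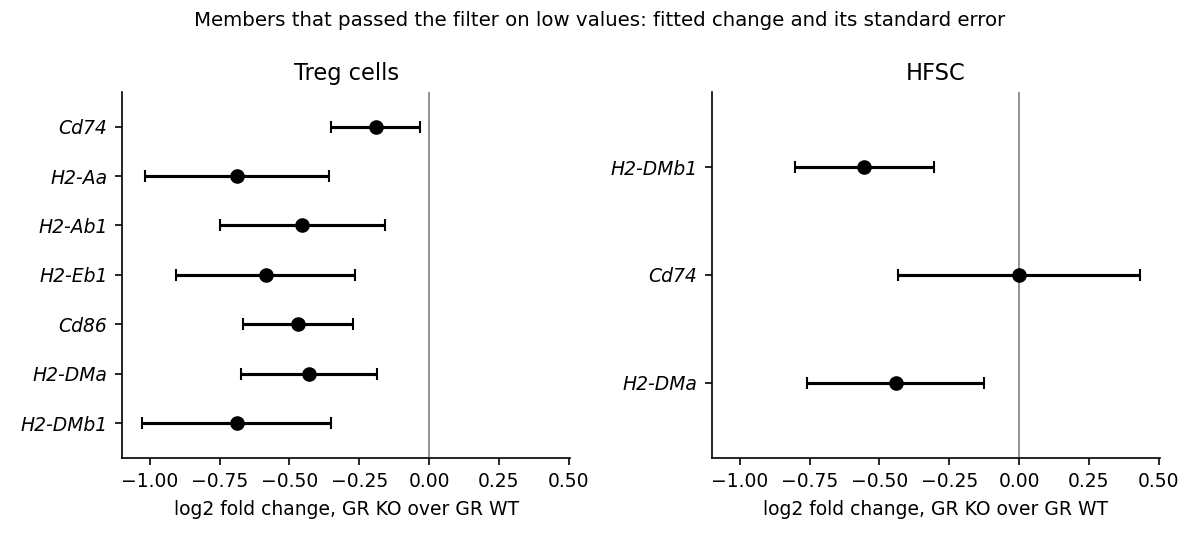
Fitted log2 fold change, GR KO over GR WT, with its standard error as a bar, for the 7 genes tested in Treg cells and the 3 tested in HFSC. The Treg values run from -0.69 to -0.19 and the HFSC values from -0.55 to 0.00, and limma called none of them.

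With all libraries, the other genes of the class II pathway did not pass either. Of 5 further class II genes in Treg cells 3 were tested, and limma called 0 (0 with an unadjusted p under 0.05, 0 by voom, median log2 -0.11). H2-Oa, an inhibitor chain of H2-DM, averaged 13.0 TPM in Treg GR KO and 13.4 TPM in Treg GR WT, above H2-DMa and H2-DMb1. Of 7 partner genes of CIITA at the promoter (RFX, NF-Y and CREB), limma called 0 of 7 (0 unadjusted, 0 by voom, median 0.11). Rfx5 was at 10.8 TPM in Treg GR KO and 9.69 TPM in Treg GR WT, and Creb1 at 38.0 and 45.7 TPM in the same order. Of 9 tested genes of peptide loading and turnover limma called 0 (2 unadjusted, 0 by voom, median -0.27), with the thiol reductase gene Ifi30 at 46.5 TPM in Treg GR KO and 65.3 TPM in Treg GR WT (called only without GR WT replicate 2, adjusted p = 0.0293) and the cathepsin gene Ctss at 393 TPM in Treg GR KO and 477 TPM in Treg GR WT. Of 9 genes between interferon gamma and Ciita limma called 0 (1 unadjusted, 0 by voom, median -0.06).

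The MHC class I pathway, measured beside class II, did not pass either. B2m averaged 14044 TPM in Treg GR KO and 13615.5 TPM in Treg GR WT, and the 13 genes reached down to Nlrc5, at 34.2 TPM in Treg GR KO and 51.0 TPM in Treg GR WT. Limma called 0 of 13 class I pathway genes (5 unadjusted, 0 by voom, median 0.17), with H2-D1 at log2 0.35 and Nlrc5, the class I counterpart of Ciita, at -0.55. Of 8 T cell partner genes limma called 0 (2 unadjusted, 0 by voom, median -0.16). Lag3, whose protein binds class II, averaged 16.6 TPM in Treg GR KO and 7.24 TPM in Treg GR WT (log2 1.08, adjusted p = 0.15). Of 6 tested niche factor genes of FLT3 and Langerhans cells limma called 0 (1 unadjusted, 1 by voom, median -0.21).

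Markers of other skin cells moved with genotype in the same Treg libraries. Macrophage and monocyte markers summed to 85.9, 84.7, 114, 66.2 and 182 TPM in Treg GR KO, against 358, 226 and 397 TPM in Treg GR WT. Of the 12 tested, 6 fell (limma adjusted p under 0.05, where 1.31% of all genes fell), with a median of -1.40. This and the other marker lists were chosen with earlier results of these data known. The share over all genes is thus given as a description and is no test of a list. Without GR WT replicate 1 the number was 1, without replicate 3 it was 0, and the median was -1.53 and -1.13. Within each genotype, the library with the highest marker sum, GR KO replicate 5 or GR WT replicate 3, also had the highest chain sum (289 and 535 TPM). In GR WT the order held for all libraries, with replicates 1 and 2 at chain sums of 277 and 170.5 TPM. The other GR KO libraries did not follow that order, since replicate 4 had the lowest marker sum. Its chain sum of 198 TPM was above those of GR KO replicates 1, 2 and 3. The chain sum stood at 1.59 to 2.99 times the macrophage sum in Treg GR KO, against 0.754 to 1.35 times in Treg GR WT, with no overlap. The macrophage sums by themselves did not overlap between the genotypes, so the separation of the ratio is not a separate result. Against the Langerhans and dendritic marker sum the ratio went the other way, with overlap. It was 0.285 to 0.539 times in Treg GR KO and 0.509 to 1.496 times in Treg GR WT. Most of that marker sum came from Cd83, so the ratio was largely one to that gene.

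**Figure D3:**
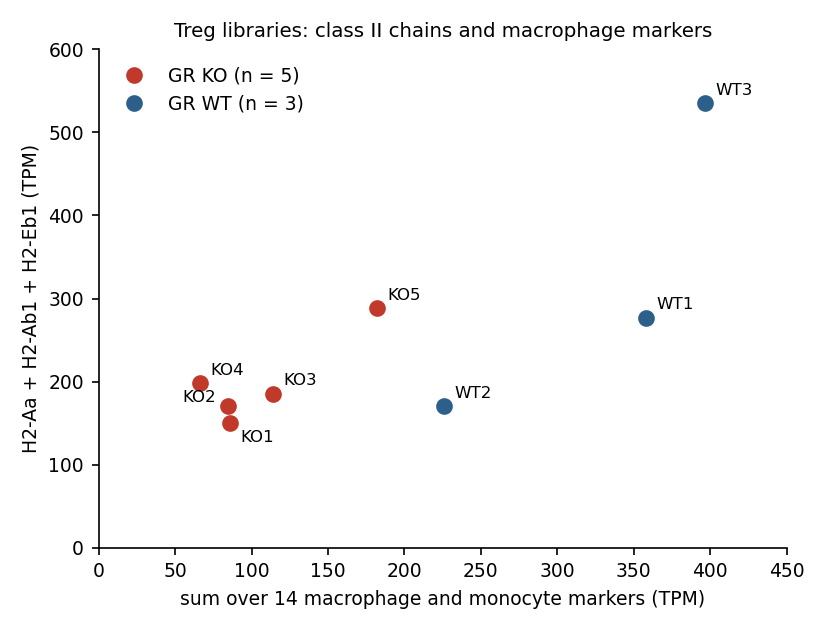
Sum of H2-Aa, H2-Ab1 and H2-Eb1 against the sum of 14 macrophage and monocyte markers, both in TPM, 1 point per Treg library (5 GR KO, 3 GR WT). The macrophage sums of 66.2 to 182 TPM in GR KO lie below the 226 to 397 TPM in GR WT, while the chain sums of 150.2 to 289 TPM in GR KO overlap the 170.5 to 535 TPM in GR WT.

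Langerhans and dendritic cell markers summed to 361 to 600.2 TPM in Treg GR KO and 335 to 358 TPM in Treg GR WT, most of it from Cd83, which averaged 381 TPM in Treg GR KO and 220.4 TPM in Treg GR WT (adjusted p = 0.064). Cd83 passed as higher in GR KO with median ratio scaling (adjusted p = 0.0443), by voom (0.0124) and without GR KO replicate 1 (0.00513). Of 12 tested, 1 fell, Clec4a3, a lectin gene also known from monocytes, at 2.23 ± 1.01 TPM in Treg GR KO and 8.77 ± 2.30 TPM in Treg GR WT (adjusted p = 0.0323). That call was lost without GR KO replicate 1, 2 or 5 or GR WT replicate 1 or 3 (adjusted p up to 0.165), with a pseudocount of 0.1 TPM (0.0809) and with no filter on low values (0.0686). B cell markers summed to 6.74 to 15.4 TPM in Treg GR KO and 9.06 to 17.1 TPM in Treg GR WT, nearly all from Cd79b, and Ms4a1 and Pax5 were below 1 TPM on average. Neutrophil markers summed to 0 to 20.8 TPM in Treg GR KO and 75.7 to 326 TPM in Treg GR WT, and 2 of 3 tested fell (0 without GR WT replicate 1 or 3, with a pseudocount of 0.1 TPM or with a robust prior, and 1 with no filter). Basal keratinocyte markers summed to 16.8 to 115 TPM in Treg GR KO and 412 to 632 TPM in Treg GR WT, and 7 of 9 fell (4, 5 and 3 without GR WT replicate 1, 2 and 3, and 4 with a robust prior or without GR KO replicate 5). Of the hair follicle stem cell markers 2 of 4 tested fell, Cd34 and Krt15, and Krt15 is also among the 7 basal keratinocyte calls. The number was 1 without any 1 of the GR WT libraries and in most other alternatives. Of the T cell and Treg markers 1 of 7 fell, the interleukin-2 receptor gene Il2ra (log2 -0.55, adjusted p = 0.00575). The part of any of these cells in the class II values was not tested. In bulk RNA, fewer cells of a type and less RNA per cell cannot be told apart.

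The genes nearest to the mean profile of H2-Aa, H2-Ab1, H2-Eb1 and Cd74 over the 8 Treg libraries, by Euclidean distance of centred log2(TPM + 1) values, were Prnp, Vegfa, Gng12, Pced1b, Nedd4, Tpm1, Jmjd8 and Ctnnb1 (distances 0.409 to 0.655, of 8075 genes ranked). Each of them had the higher mean in GR WT, and limma called none (adjusted p 0.244 to 0.917). That direction comes with the choice of genes, since the profile itself peaked in GR WT replicate 3 (1.05, the other libraries -0.55 to 0.29). Prnp, the prion protein gene, averaged 9.01 ± 2.20 TPM in Treg GR KO and 13.8 ± 4.74 TPM in Treg GR WT. Ctnnb1, the beta-catenin gene, averaged 92.1 ± 6.14 TPM in Treg GR KO and 129 ± 48.7 TPM in Treg GR WT. Of the genes that defined the profile, H2-Ab1 lay at a distance of 0.204 from it, H2-Eb1 at 0.374, H2-Aa at 0.615 and Cd74 at 0.831. H2-DMa and H2-DMb1, which did not define it, lay at distances of 0.864 and 0.935, and Cd86 at 1.24. Each set alone among the ranked genes, H2-Aa took place 5, Cd74 place 51, H2-DMa place 74, H2-DMb1 place 144 and Cd86 place 2014. Many genes outside the 10 were thus nearer to the profile than Cd74, the editor genes or Cd86.

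In HFSC the order of the genes was different, with H2-DMb1 the most abundant. H2-DMb1 had 11.9, 9.495 and 8.56 TPM in HFSC of GR KO, against 21.5, 10.95 and 14.2 TPM in HFSC of GR WT. It was above Cd74 in 6 of 6 libraries, and its mean of 12.8 TPM exceeded the 7.52 TPM of the Treg table. GR KO replicate 1 and GR WT replicate 2 overlapped, and the log2 change was -0.55 (SE 0.25, limma adjusted p = 0.316). Without GR WT replicate 1, the library farthest out in its table, the fold change was -0.31. H2-DMb2 averaged 0.0967 TPM in HFSC of GR KO and was listed at 0 in HFSC of GR WT.

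**Figure D4:**
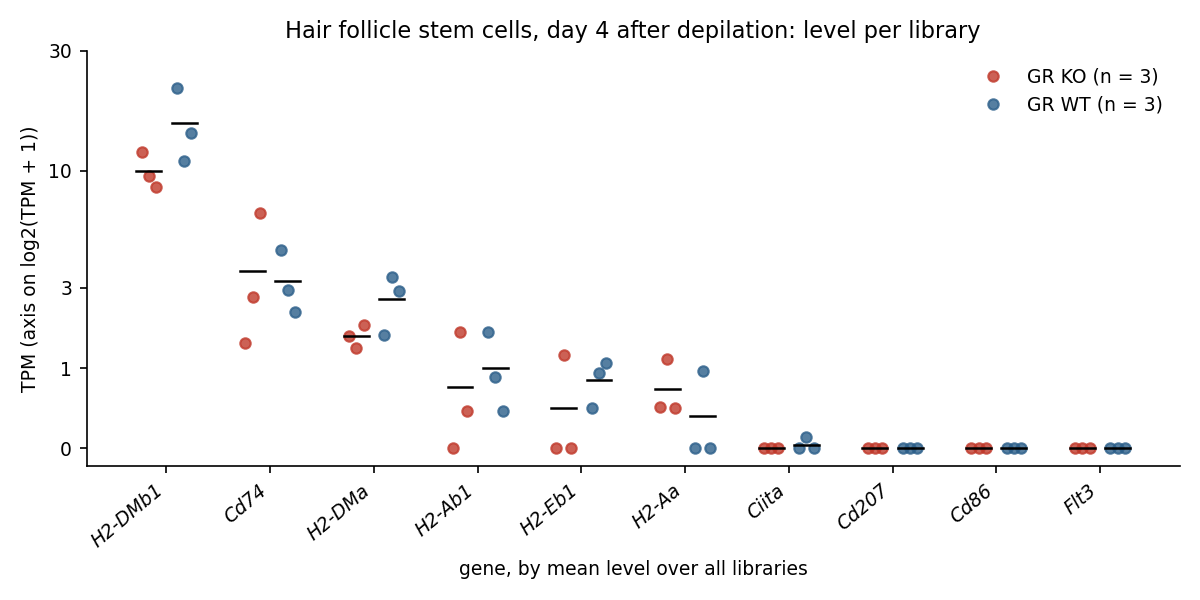
Level of each of the 10 genes in each HFSC library, in TPM on an axis spaced as log2(TPM + 1), with GR KO left of GR WT (3 points each) and the group mean as a bar. H2-DMb1 stands at 8.56 to 21.5 TPM, Cd74 and H2-DMa at 1.37 to 6.62 TPM, and Cd207, Cd86 and Flt3 at 0 in each library.

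H2-DMa, whose product pairs with that of H2-DMb1, stayed low in HFSC. It had 1.645, 1.37 and 1.89 TPM in HFSC of GR KO, against 1.665, 3.39 and 2.88 TPM in HFSC of GR WT (log2 fold change -0.44, SE 0.32, limma adjusted p = 0.524). H2-DMa stood at 0.138 to 0.221 of H2-DMb1 in HFSC of GR KO and 0.0773 to 0.309 in HFSC of GR WT. In the Treg table the same ratio was 0.969 to 1.51 in GR KO and 0.745 to 1.13 in GR WT, so the HFSC ratios lay below each Treg ratio. Cd74 had 1.49, 2.71 and 6.62 TPM in HFSC of GR KO, against 4.53, 2.93 and 2.24 TPM in HFSC of GR WT (log2 fold change 0.00, SE 0.43, limma adjusted p = 0.9998), from 8 to 36 tags a library.

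The chain genes were detected in HFSC from few tags. H2-Ab1 had 0, 1.73 and 0.376 TPM in HFSC of GR KO, against 1.74, 0.858 and 0.382 TPM in HFSC of GR WT, from 24 tags over the 6 libraries. H2-Eb1 had 0, 1.24 and 0 TPM in HFSC of GR KO, against 0.414, 0.918 and 1.09 TPM in HFSC of GR WT (26 tags in all). H2-Aa had 0.426, 1.16 and 0.420 TPM in HFSC of GR KO, against 0, 0.957 and 0 TPM in HFSC of GR WT (14 tags in all). The groups overlapped for each chain. The 3 values of GR KO replicate 2 (1.16 TPM for H2-Aa, 1.73 for H2-Ab1 and 1.24 for H2-Eb1) were the highest of the GR KO group. These levels lie around or below the 0.742 to 1.94 TPM that 6 tags are worth, and no difference between the genotypes was detectable at this depth. Ciita, given for the transcript NM_001243761 in this table, had 2 tags in 1 GR WT library. Cd207, Cd86 and Flt3 had 0 tags in 6 of 6 libraries, which allows up to 0.810 to 1.35 TPM for Cd207, 0.487 to 0.815 TPM for Cd86 and 0.339 to 0.568 TPM for Flt3 (6 tags per library, counting error only).

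Of the 10 genes, 3 passed the filter in HFSC, and limma called 0 of 3, where it called 0.176% of all 12493 genes (0.032% lower and 0.144% higher in GR KO). None of the 3 had an unadjusted p under 0.05, against 16.6% of all genes. Voom called 0 of 3, against 483 of all 12493 genes. In none did the groups separate, where all GR KO libraries lay below all GR WT libraries for 12.8% of genes and above them for 10.7%. The fold change was below 0 in 3 of 3, as in 52.8% of all genes, and its median was -0.44 over the 3 and -0.02 over all genes. The promoter partners of CIITA were expressed in HFSC, at a sum of 147 to 165 TPM in GR KO and 173 to 194 TPM in GR WT, and limma called 0 of 7 (1 unadjusted, 0 by voom, median -0.27). Class I pathway genes were expressed too, with B2m at 1293 TPM in HFSC of GR KO and 1329 TPM in HFSC of GR WT, and limma called 0 of 13 (4 unadjusted, 0 by voom, median -0.08). H2-Oa, H2-Ob and H2-Eb2 were listed at 0 in all HFSC libraries.

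Genes of peptide loading and turnover summed to 755 to 829.1 TPM in HFSC of GR KO and 813 to 969 TPM in HFSC of GR WT, and limma called 0 of 9 (2 unadjusted, 0 by voom). Ifi30, whose role is in class II peptide processing, averaged 63.1 TPM in HFSC of GR KO and 67.4 TPM in HFSC of GR WT. Limma also called 0 of 8 genes between interferon gamma and Ciita (0 unadjusted, 0 by voom), 0 of 5 niche factor genes (0 and 0) and 0 of 2 T cell partner genes (0 and 0). Il34, a keratinocyte cytokine that Langerhans cells need, averaged 6.94 TPM in HFSC of GR KO and 5.93 TPM in HFSC of GR WT. Langerhans and dendritic cell markers summed to 187 to 229 TPM in HFSC of GR KO and 232 to 265 TPM in HFSC of GR WT, most of it from Epcam, Sirpa and Fscn1. The source cells of these transcripts were not tested. Of the 18 markers 7 were listed at 0 in all HFSC libraries, Itgax, Cd209a, Clec9a and Xcr1 among them, as were 2 of 14 macrophage and monocyte markers, Aif1 and Ms4a7, and 5 of 6 B cell markers. Macrophage and monocyte markers summed to 57.2 to 65.2 TPM in HFSC of GR KO and 66.2 to 75.3 TPM in HFSC of GR WT. Limma called 0 of the tested genes of the dendritic, macrophage, neutrophil, keratinocyte, T cell and stem cell lists in HFSC. Unadjusted p under 0.05 was found for 2 of 4, 0 of 5, 0 of 1, 2 of 10, 1 of 1 and 3 of 8 of them in that order, and voom called 0, 0, 0, 2, 1 and 3. T cell and Treg markers summed to 12.3 to 13.4 TPM in HFSC of GR KO and 5.17 to 9.01 TPM in HFSC of GR WT, mostly from Ikzf2, and basal keratinocyte markers to 17280 to 20693 TPM in GR KO and 23095 to 28170 TPM in GR WT.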

How the data were processed

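The authors deposited TPM (length-scaled abundance) per library, 1 table per cell type, with 1 RefSeq transcript and its length per symbol, per the file headers. FastQC, Trim Galore, STAR, HOMER and mm10 stand in the submitters' processing notes. A stranded kit for mRNA was used, per the labels' protocols. The sources used here do not give versions, settings or use of strand. Of 24537 symbols, 1273 had another transcript in the other table, Ciita among them. HFSC columns carried a prefix with no explanation in the labels, and their table, genotype and number gave the match.

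Tags were recovered from TPM times length, which gave whole numbers within 0.1 for 100% of the low values. Of values of 1 to 20 tags, 84.2% to 90.9% were even. Mates may thus both be counted, and tags need not be separate molecules. The limit a count of 0 allows was therefore set at 3 read pairs, or 6 tags, which for a transcript of 2000 bases is 0.276 to 0.413 TPM in Treg and 0.616 to 1.03 TPM in HFSC libraries. Limma 3.58.1 (R 4.3.3) was run per table on log2(TPM + 1) for genes averaging 1 TPM or more, with a trended prior, two-sided, adjusted over all genes by Benjamini-Hochberg and called at 0.05. That scale shrinks the changes of low genes. The fit was tested on simulated data. The planned count test was not run, since the values are TPM. Voom on recovered tags, chosen after seeing the data, was run in its place. The members and 14 further lists (130 genes) were chosen with earlier results of these data known. H2-Ea was matched as H2-Ea-ps, and 1 listed gene had no row. Of each further list up to 4 genes were to be named, those past the threshold first and then by smallest p. Rfx5, B2m, Cd83, Il34, Ikzf2, Ifi30 in HFSC and single marker genes were named after their values were seen. Nearest genes were ranked in Treg cells only, since the chains had few tags in HFSC.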

Additional observations from a re-analysis of the deposited data

Results flagged for a closer look

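Among the 10 genes in the 5 Treg GR KO libraries, 1 library stood apart by Dixon's test (gap over range above 0.71, which chance exceeds in about 1 in 20 groups). H2-Aa was at 131 TPM in GR KO replicate 5, with the other GR KO libraries at 72.7 to 88.9 TPM, a gap of 0.722 of the range. The same library had the highest H2-Ab1, H2-Eb1 and Cd86 of the GR KO group and the highest macrophage marker sum (182 TPM). Groups of 3 were not tested in this way.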

How the results depend on the processing

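No member was called in either table under any alternative run, except H2-Aa in Treg cells without GR WT replicate 2, so that the number of members called in Treg cells was 0 to 1 when each library was left out. Of 112 alternative values of Treg members, 110 kept their direction and their side of the threshold, and of 40 in HFSC 35 did. These counts say little of stability. Keeping the side meant only staying uncalled, and other filters or a robust prior cannot move the fold change, nor can the replicate block in HFSC. A value could also shrink and still count as kept, as H2-Ab1 did from -0.45 to -0.01 without Treg GR WT replicate 3. The log2 fold change of Cd74 changed sign in Treg cells without GR WT replicate 3 (0.0025, where it was -0.19 with all libraries and -0.31 to 0.0025 with each left out). In HFSC, where it was -0.00047, it was 0.029 with a pseudocount of 5 TPM, 0.0069 with median ratio scaling, 0.36 without GR KO replicate 1, 0.08 without GR KO replicate 2 and 0.21 without GR WT replicate 1, within -0.44 to 0.36 over all libraries left out. The cause was not tested. The number of all genes called in Treg cells (175) was 84 to 186 when each library was left out. In HFSC it was 22, and 0 to 5 when each library was left out, 2 with no filter on low values, 48 with a mean of at least 5 TPM, 69 with median ratio scaling, 51 with a robust prior and 483 with voom. The labels do not say whether the replicate numbers pair the samples, and so few pairs cannot settle it. Correlations of deviations of same-numbered libraries were -0.12 to 0.17 in Treg and -0.04 to 0.06 in HFSC. In Treg 3 of 6 libraries were closest to their own number, and in HFSC 2 of 6. The fit with a replicate block called 111 genes in Treg cells and 66 in HFSC, and no member. In Treg cells it left out GR KO replicates 4 and 5, which have no GR WT library of the same number. Its unadjusted limma p was 0.0066 for Cd86, 0.0126 for H2-Eb1, 0.0201 for H2-Aa and 0.0416 for H2-Ab1. It was above 0.05 for H2-DMa, H2-DMb1 and Cd74. In Treg cells the block fit also called Lag3 as higher in GR KO (limma adjusted p = 0.0428) and did not call Il2ra (0.101). It called 3 of 9 basal keratinocyte markers, where 7 were called with all libraries and no block. The block and the libraries left out cannot be told apart in these changes. The planned edgeR alternative was not run, since the files hold TPM. With few tags, the levels of Ciita, Cd207 and Flt3 in both tables and of the chain genes in HFSC are limited by depth.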
